A study of Mus musculus with 38 samples.

Results

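The levels of 10 genes tied to glucocorticoid signalling and metal binding were followed in brown adipose tissue of C57BL/6J mice: Nr3c1, Hsd11b1, Fkbp5, Tsc22d3, Sgk1, Dusp1, Zbtb16, Cebpd, Mt1 and Mt2. They were chosen by name, as every gene name of the array that equals one of these symbols, and make up 10 of the 29411 gene names on the array and 10 of the 21862 genes tested. Mice weaned at the age of 3 to 4 weeks were put into 5 groups of 30 animals. The LFC group received the low fat control diet with 10% of its calories from fat, and the HFC group the high fat high sucrose diet with 60%. The HF5, HF20 and HF75 groups received the high fat high sucrose diet together with 5, 20 or 75 µg of Kal-1, an aqueous ethno-botanical formulation. Total RNA was hybridised to 38 arrays with 1 colour: 10 LFC and 10 HFC arrays (Day 6, Day 10, Day 14 and Weeks 0, 3, 6, 9, 12, 15 and 18) and 6 arrays for each dose (Weeks 3 to 18). A group and a time point meet in 1 array only, so replicates here are the time points, and p values measured the spread over time points. The labels state that 5 animals of each group were sacrificed per interval, and do not state whether an array holds 1 animal or a pool.

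Glucocorticoids enter cells and bind the glucocorticoid receptor, a nuclear receptor encoded by Nr3c1 that is held in the cytoplasm by chaperones and moves to the nucleus once it has bound hormone. The supply of active hormone inside fat cells depends on Hsd11b1, which regenerates corticosterone from an inert precursor. Fkbp5, Tsc22d3, Sgk1, Dusp1, Zbtb16 and Cebpd are textbook target genes of the receptor, although several of them also respond to stress and growth signals, and Mt1 and Mt2 respond both to glucocorticoids and to zinc and copper. In brown fat, glucocorticoids are known to restrain heat production and to favour storage of lipid.

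All values below are log2 signals relative to the 75th percentile of the same array, and differences between groups are differences of these log2 levels. The arrays differed widely in brightness. This percentile, in intensity units, had a median of 183 and reached from 35.1 to 1209, and the arrays fell into 11 bright ones (625 to 1209) and 27 dim ones (35.1 to 430). The bright arrays were unevenly spread over the groups, with 4 of 10 in LFC, 2 of 10 in HFC, 0 of 6 in HF5, 4 of 6 in HF20 and 1 of 6 in HF75. The HF75 array of Week 3 went against its tissue label: Ucp1 stood at -3.07 there against 3.38 to 8.57 on the other 37 arrays, Cidea at -1.78 against 5.58 to 8.77, and Cox7a1 at -0.33 against 4.41 to 8.32. On the same array Tcf21 and Hoxc9, which mark white fat depots, were higher than on each of the other 37 arrays. The levels of all 10 genes on that array lay within the range of the other 37.

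Each of the 10 genes was well above background on 38 of 38 arrays, and the spots were saturated on 2 arrays for Mt2 and on 1 array for Cebpd. The plot of levels over time shows a large spread within each group. Ordered by their means over Weeks 3 to 18, the 5 groups gave 40 gaps between neighbouring groups across the 10 genes, and 0 of these gaps exceeded the larger SD of the pair. Neighbours in such an order are the closest pairs, so this count does not speak for groups further apart. Some of those gaps were wider than the larger SD. HF75 minus HF20 was -2.26 for Hsd11b1 (SDs 0.83 and 1.36), and HF20 minus HF5 was -1.66 for Dusp1 (SDs 0.89 and 0.51). For Nr3c1 the widest gap, HF75 minus HF20, was 0.41 (SDs 0.48 and 0.45). Because these are bulk tissue samples, fewer cells of a type and less RNA per cell cannot be told apart.

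**Figure D1:**
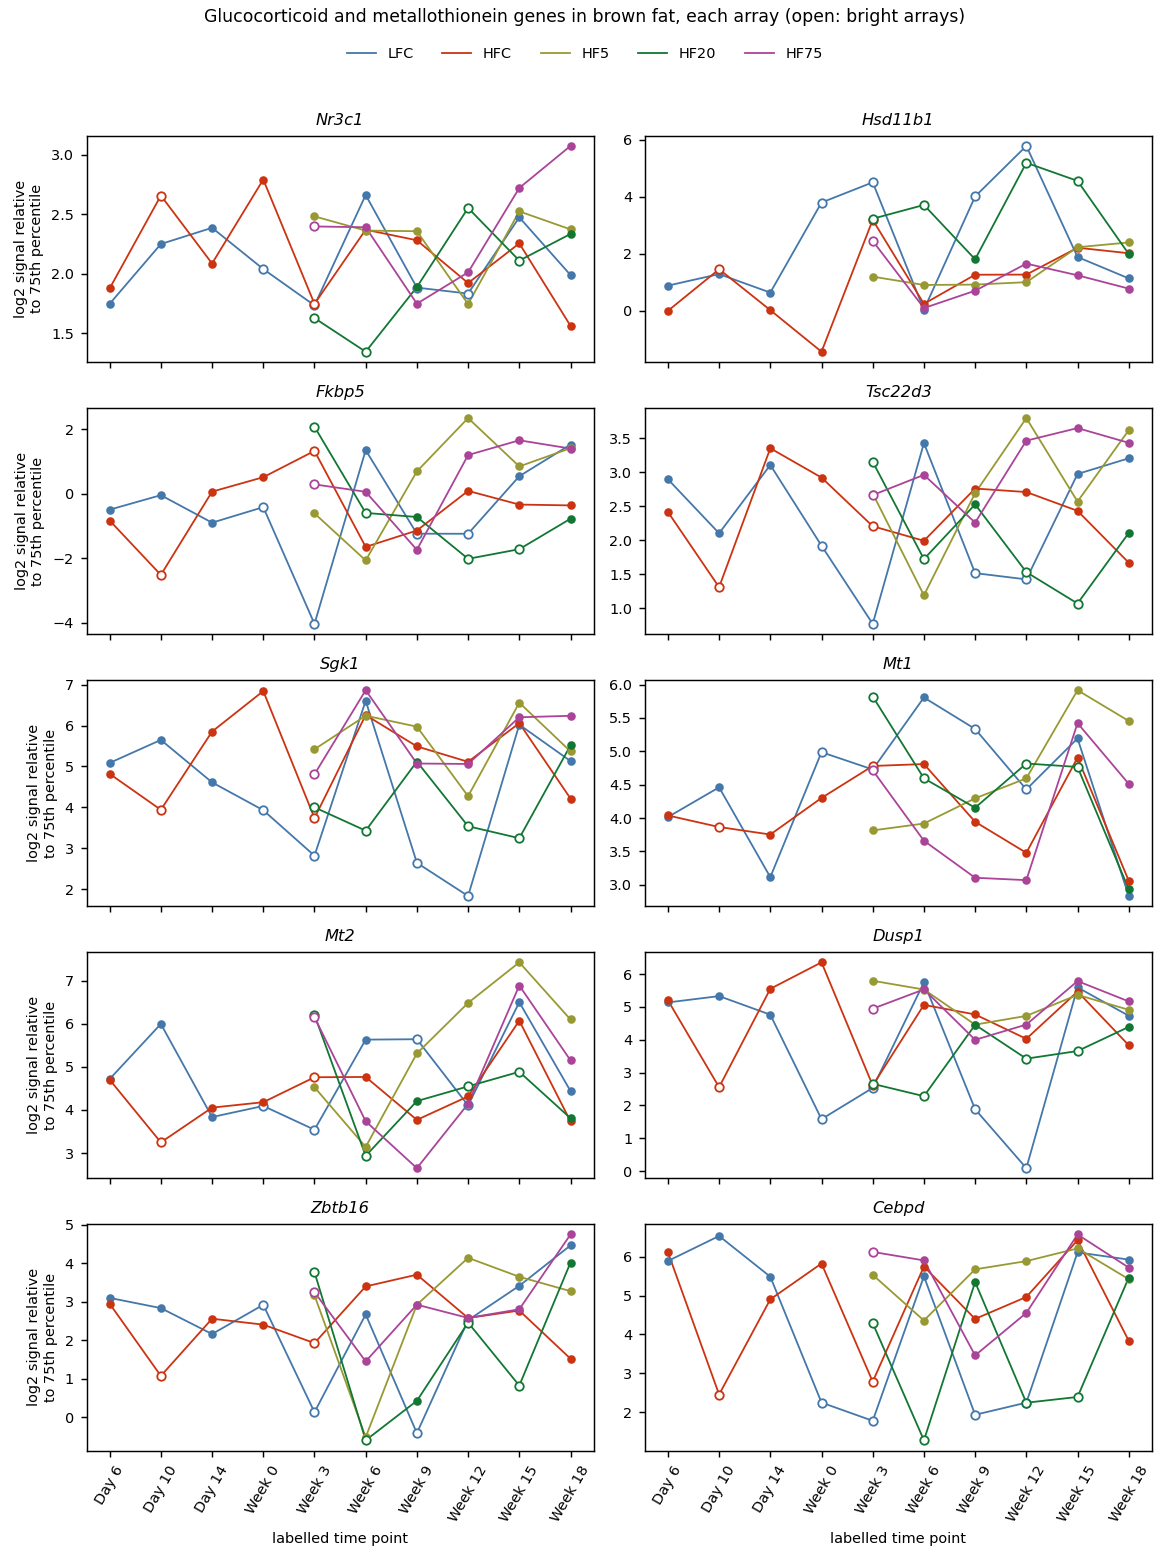
Levels of the 10 genes (vertical axes, log2 signal relative to the 75th percentile of the array) at each labelled time point (horizontal axis), with 1 point per array, 1 coloured line per group and open points for the 11 bright arrays. In LFC the open points of Hsd11b1 lie above all filled ones (3.80 to 5.79 against 0.04 to 1.89), and those of Cebpd lie below them (1.78 to 2.25 against 5.49 to 6.53).

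Nr3c1, the receptor itself, was the steadiest of the 10 genes. The lowest, median and highest levels were 1.73, 2.02 and 2.66 in LFC and 1.56, 2.17 and 2.79 in HFC. With Kal-1 they were 1.75, 2.37 and 2.53 in HF5, 1.35, 2.0 and 2.55 in HF20 and 1.75, 2.40 and 3.08 in HF75. All 5 groups overlapped, and the range over all arrays corresponded to 3.32-fold. Nr3c1 had 4 probes, and the other 3 followed the kept one with Pearson r of 0.47 to 0.73 over the 38 arrays.

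Hsd11b1, the reductase that makes active corticosterone inside the cell, had the widest range of the 10 genes, 149.8-fold over all arrays. In LFC its lowest, median and highest levels were 0.04, 1.59 and 5.79, and in HFC they were -1.44, 1.27 and 3.19. In HF5 they were 0.90, 1.1 and 2.40, in HF20 1.81, 3.47 and 5.19, and in HF75 0.09, 1.01 and 2.45. The highest levels were those of bright arrays: LFC at Weeks 0, 3, 9 and 12 stood at 3.80, 4.51, 4.01 and 5.79, and HF20 at Weeks 3, 6, 12 and 15 at 3.23, 3.71, 5.19 and 4.56. The dim HF20 arrays of Weeks 9 and 18 stood at 1.81 and 1.99, inside the range of the dim arrays of all groups (-1.44 to 2.40, median 1.13), whereas bright arrays ran from 1.46 to 5.79 (median 3.80). Hsd11b1 had 1 promoter window, with 1 TGCACNC match and none of the other motifs described here.

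Among the receptor targets, Fkbp5 encodes a co-chaperone that lowers the affinity of the receptor for hormone and so closes a feedback loop. On the arrays its lowest, median and highest levels were -4.04, -0.45 and 1.53 in LFC, -2.52, -0.35 and 1.33 in HFC, -2.07, 0.77 and 2.35 in HF5, -2.02, -0.75 and 2.08 in HF20 and -1.74, 0.75 and 1.66 in HF75. The groups overlapped over most of their range. A single LFC array, that of Week 3, stood 2.80 below the next lowest of its group, and the HF20 array of the same week stood 2.68 above the next highest of its group. The kept probe of Fkbp5 followed the other probes with r of 0.57 and 0.59 over the 38 arrays.

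Tsc22d3 encodes GILZ, a leucine zipper protein that carries part of the anti-inflammatory action of glucocorticoids. From lowest over median to highest, its levels were 0.77, 2.50 and 3.43 in LFC, 1.31, 2.42 and 3.35 in HFC, 1.19, 2.69 and 3.79 in HF5, 1.07, 1.92 and 3.15 in HF20 and 2.26, 3.20 and 3.65 in HF75. The LFC array of Week 3 was the lowest of all 38 for this gene as it was for Fkbp5. Zbtb16 encodes a zinc finger repressor that is induced by glucocorticoids in many cell types. Zbtb16 levels (lowest, median and highest) were -0.41, 2.75 and 4.46 in LFC, 1.07, 2.57 and 3.70 in HFC, -0.52, 3.22 and 4.14 in HF5, -0.60, 1.64 and 4.02 in HF20 and 1.45, 2.87 and 4.75 in HF75. From Week 3 on, Zbtb16 was lowest at Week 6 in 3 of the 5 groups (HF5, HF20 and HF75) and highest at Week 18 in 3 (LFC, HF20 and HF75), with no test of this order.

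Sgk1 encodes a kinase that is induced by serum and glucocorticoids and acts on ion channels and insulin signalling. Sgk1 levels (lowest, median and highest) were 1.83, 4.85 and 6.60 in LFC, 3.74, 5.30 and 6.84 in HFC, 4.27, 5.70 and 6.56 in HF5, 3.25, 3.77 and 5.52 in HF20 and 4.81, 5.64 and 6.86 in HF75. In HF20 the 4 bright arrays (3.25 to 4.00) were lower than the 2 dim ones (5.12 and 5.52), and in LFC the 4 bright arrays (1.83 to 3.93) were lower than the 6 dim ones (4.61 to 6.60).

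Dusp1 encodes a phosphatase that switches off MAP kinases. Dusp1 levels (lowest, median and highest) were 0.09, 4.75 and 5.75 in LFC, 2.56, 4.92 and 6.36 in HFC, 4.46, 5.14 and 5.80 in HF5, 2.28, 3.54 and 4.46 in HF20 and 4.00, 5.06 and 5.79 in HF75. The HF5 and HF20 ranges of Dusp1 met at 4.46, the lowest level of the former and the highest of the latter, both at Week 9. Both probes of Dusp1 ran together (r of 0.99 over the 38 arrays).

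Cebpd encodes a transcription factor that acts early in fat cell differentiation. Its lowest, median and highest levels were 1.78, 5.49 and 6.53 in LFC, 2.46, 4.93 and 6.42 in HFC, 4.36, 5.60 and 6.21 in HF5, 1.28, 3.34 and 5.46 in HF20 and 3.46, 5.81 and 6.57 in HF75. The bright LFC arrays of Cebpd (1.78 to 2.25) lay well below the dim ones (5.49 to 6.53), and the same held for Dusp1 in LFC (0.09 to 2.53 against 4.73 to 5.75). The bright HF75 array of Week 3 did not share this, with Cebpd at 6.12 and Dusp1 at 4.95 beside 3.46 to 6.57 and 4.00 to 5.79 on the 5 dim HF75 arrays.

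The promoters of Sgk1 and Dusp1 are shown because they carry binding motifs for hormone and stress signals. The windows are the 250 bases before a RefSeq transcription start on build GRCm38.p6, read 5′ to 3′ on the strand of the gene, and 14 windows were used for 7 of the 10 genes. The Sgk1 window is chr10:21993640-21993889 on the plus strand, 1 of 6 starts of this gene, and the Dusp1 window is chr17:26508473-26508722 on the minus strand. Capitals mark the hexamer TGTTCT of the glucocorticoid response element and the full palindrome (AGAACA, 3 bases, TGTTCT) in Sgk1, and TGACGTCA, the cyclic AMP response element, in Dusp1.
Sgk1: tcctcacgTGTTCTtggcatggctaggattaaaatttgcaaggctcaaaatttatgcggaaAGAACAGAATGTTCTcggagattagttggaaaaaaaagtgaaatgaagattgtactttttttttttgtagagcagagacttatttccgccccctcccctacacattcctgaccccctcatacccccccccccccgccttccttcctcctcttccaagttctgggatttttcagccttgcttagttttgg
Dusp1: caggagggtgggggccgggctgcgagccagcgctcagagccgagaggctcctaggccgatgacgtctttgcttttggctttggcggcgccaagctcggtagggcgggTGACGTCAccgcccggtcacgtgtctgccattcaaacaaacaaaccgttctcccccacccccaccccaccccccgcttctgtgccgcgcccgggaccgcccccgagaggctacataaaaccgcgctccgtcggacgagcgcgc
The palindrome of Sgk1 lies at bases 62 to 76 of its window and overlaps 2 of the 3 hexamer matches there, since it reads the same on both strands. It was found in 3 of 32851 promoter windows of this length (0.00913%), whereas the hexamer alone, on either strand, was found in 16.1%. In Dusp1 the element lies at bases 108 to 115, and 1.55% of all windows hold it on either strand. The Fkbp5 window held none of the searched motifs, and 1 of 3 Tsc22d3 windows held 1 hexamer.

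Mt1 and Mt2 encode metallothioneins, small cysteine-rich proteins that bind zinc and copper. The lowest, median and highest levels of Mt1 were 2.83, 4.59 and 5.81 in LFC, 3.06, 3.99 and 4.90 in HFC, 3.81, 4.44 and 5.92 in HF5, 2.93, 4.68 and 5.82 in HF20 and 3.07, 4.09 and 5.42 in HF75. Those of Mt2 were 3.54, 4.58 and 6.51 in LFC, 3.25, 4.25 and 6.08 in HFC, 3.14, 5.71 and 7.43 in HF5, 2.93, 4.38 and 6.21 in HF20 and 2.65, 4.65 and 6.89 in HF75. For both genes all groups overlapped, and the spread over time within a group was larger than the gaps between groups. Week 15 stood out across groups: Mt2 was at 6.51 in LFC, 6.08 in HFC, 7.43 in HF5, 4.89 in HF20 and 6.89 in HF75, which from Week 3 on was the highest value in 4 of the 5 groups. HF20 was the exception, with its highest value of 6.21 at Week 3. Mt1 at Week 15 ran from 4.77 to 5.92 and was the highest from Week 3 on in 3 of the 5 groups, and at Week 18 it was the lowest in 3 of the 5, at 2.83 in LFC, 3.06 in HFC and 2.93 in HF20. Cebpd, too, was highest at Week 15 from Week 3 on in 4 of the 5 groups, all but HF20. These orders of weeks were not tested. Arrays of a time point were scanned on nearly the same days, so the time point and the scan day cannot be told apart here.

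The promoter windows of both metallothionein genes are shown because they hold the metal response element. They are chr8:94178839-94179088 for Mt1 and chr8:94172368-94172617 for Mt2, both on the plus strand of GRCm38.p6. Capitals mark the core of the element in its forms TGCACNC and TGCGCNC, searched on both strands.
Mt1: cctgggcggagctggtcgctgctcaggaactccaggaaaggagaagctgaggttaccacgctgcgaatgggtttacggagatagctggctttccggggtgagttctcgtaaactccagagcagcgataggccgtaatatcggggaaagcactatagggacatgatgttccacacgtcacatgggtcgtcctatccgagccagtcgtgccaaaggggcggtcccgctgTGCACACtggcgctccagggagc
Mt2: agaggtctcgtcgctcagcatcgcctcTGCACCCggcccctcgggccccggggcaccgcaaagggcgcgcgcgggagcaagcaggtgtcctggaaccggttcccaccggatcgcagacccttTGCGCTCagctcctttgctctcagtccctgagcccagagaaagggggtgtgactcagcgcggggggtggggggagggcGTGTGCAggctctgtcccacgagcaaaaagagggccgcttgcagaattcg
The Mt1 window held 1 core, at bases 228 to 234, and the Mt2 window held 3, at bases 28 to 34, at bases 123 to 129 (TGCGCNC) and, on the minus strand, at bases 201 to 207. Either form was found in 21.4% of all 32851 windows. A match in these letters is a description of the window and shows no binding.

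The first comparison asked how the high fat high sucrose diet changed these genes over the whole course. In HFC against LFC, fitted with limma over 10 time points, 0 of the 10 genes passed at an adjusted p of 0.05, beside 0% of all 21862 genes. At an unadjusted p under 0.05 limma gave 1523 genes and 1 of the 10, and the methods' t-test gave 870 genes with 0 passing after Benjamini-Hochberg adjustment. The study's methods run this test at a time point and without adjustment, whereas here it was run unpaired over the 10 arrays of each group, since a time point holds 1 array. The median difference of all genes was 0.06, which became -0.05 with quantile normalization and 0.15 with normexp background correction.

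Hsd11b1 was the 1 gene with an unadjusted p under 0.05 in this comparison. Its HFC level was lower than the LFC level by 1.37 on average, 2.59-fold (difference -1.37, SE 0.60, 95% interval -2.69 to -0.06, n = 10 time points, limma adjusted p = 0.643), and HFC was lower at 6 of 10 time points. The 4 time points with a bright LFC array were Weeks 0, 3, 9 and 12. Over time points where both arrays were dim (Day 6, Day 14 and Weeks 6, 15 and 18), the difference was -0.02 (SE 0.30). With log2 brightness as a covariate it was -0.74 (SE 0.57). Both were smaller than over all arrays. The covariate is a straight line in log2 brightness. For Hsd11b1 r with log2 brightness was 0.54 over all arrays but -0.44 over dim ones. The line may thus leave part of the gap between the classes in place.

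None of the receptor targets passed in this comparison. Sgk1 was 0.80 higher in HFC (SE 0.50, 95% interval -0.30 to 1.90) and Dusp1 0.80 higher (SE 0.67, 95% interval -0.65 to 2.26), each higher at 6 of 10 time points. Cebpd differed by 0.38 (SE 0.65), Zbtb16 by 0.11 (SE 0.55), Tsc22d3 by 0.04 (SE 0.35) and Fkbp5 by 0.01 (SE 0.68). The other probe of Tsc22d3, also well above background on 38 arrays, had a mean difference of 0.46 and followed the kept one with r of 0.75. Over the time points where both arrays were dim (Day 6, Day 14 and Weeks 6, 15 and 18), all 6 targets were lower in HFC on average, though several of them ran together over arrays. The differences there were -0.05 for Sgk1 (SE 0.32), -0.17 for Dusp1 (SE 0.28) and -0.38 for Cebpd (SE 0.39), and further from 0 than over all arrays for Zbtb16 (-0.52, SE 0.53), Tsc22d3 (-0.75, SE 0.31) and Fkbp5 (-1.03, SE 0.55). Tsc22d3 was the 1 gene of the 10 with an unadjusted p under 0.05 over dim arrays (limma p = 0.0462, adjusted p = 0.704).

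Both metallothionein genes had lower means in HFC without passing. Mt1 differed by -0.40 (SE 0.22, 95% interval -0.88 to 0.09) and Mt2 by -0.49 (SE 0.34, 95% interval -1.24 to 0.26), each lower at 6 of 10 time points. For the receptor Nr3c1 the difference was 0.06 (SE 0.17), with a 95% interval of -0.32 to 0.43. Over time points where both arrays were dim, the differences were -0.08 (SE 0.27) for Mt1, -0.36 (SE 0.23) for Mt2 and -0.22 (SE 0.18) for Nr3c1.

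Change with days on the diet was tested over the same 20 arrays. The trend takes LFC and HFC together, and the mice age as the days pass. Age and time on the diet therefore cannot be told apart in it. A trend over days was called for 0 of the 10 genes, beside 1.68% of all genes (368), and the product of diet and day for 0 of the 10 beside 0% of all genes (limma, with 4648 and 3345 genes at an unadjusted p under 0.05, none of them among the 10). The trends of the 10 genes ran from -0.02 log2 units per 10 days for Dusp1 (SE 0.08) to 0.10 for Hsd11b1 (SE 0.07).

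**Figure D2:**
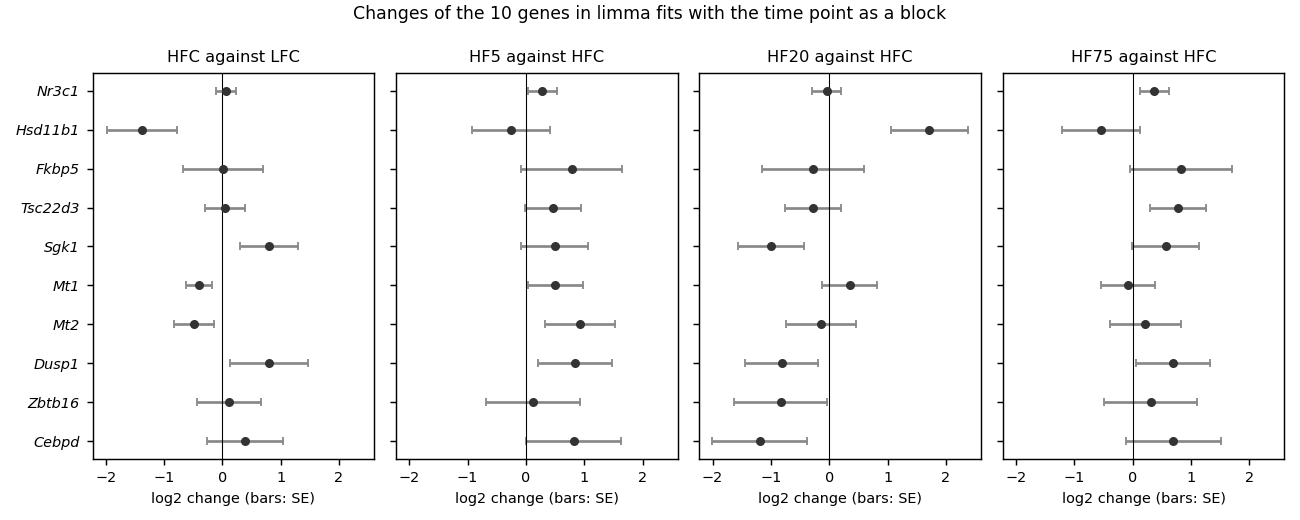
Differences in log2 level of the 10 genes (horizontal axes, points with SE bars from limma) for HFC against LFC over 10 time points and for each Kal-1 dose against HFC over 6 time points. Hsd11b1 has the largest distance from 0 among the 10 in HFC against LFC (-1.37) and, in the other direction, in HF20 against HFC (1.72).

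The next comparisons asked what each dose of Kal-1 did on top of the high fat high sucrose diet. None of the 10 genes passed in HF5, HF20 or HF75 against HFC, beside 0%, 0% and 0% of all genes (limma). The 3 comparisons share the HFC arrays. At an unadjusted p under 0.05 they held 1196, 7238 and 1999 genes, and of the 10 these were 0, 1 and 0.

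HF5 and HF75 lay above HFC for most of the 10 genes and HF20 below, in means that did not pass. Against HFC the mean was higher for 9 of 10 genes in HF5 (median difference 0.50, all genes 0.01), for 8 of 10 in HF75 (0.46, all genes -0.04) and for 2 of 10 in HF20 (-0.28, all genes -0.20). Of all genes 51.1%, 47.5% and 41.5% had a higher mean in the same order, so that in HF20 most genes also lay below HFC. The median of all genes in HF20 against HFC was 0.04 with quantile normalization and -0.40 with normexp. Hsd11b1 and Mt1 were the genes with a higher mean in HF20. The differences were uneven over weeks, and the doses share the HFC array of each week. At Week 18 each of the 10 genes was higher in HF5 than in HFC, by 0.38 (Hsd11b1) to 2.40 (Mt1). In HF75 all but Hsd11b1 (-1.24) were higher then. At Week 6, HF5 lay above HFC only for Hsd11b1 (0.66) and Dusp1 (0.47). With Week 18 left out, Zbtb16 in HF5 against HFC was -0.20 (SE 0.85). Several of these genes ran together over arrays, so the counts are not independent.

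In HF20, Hsd11b1 was higher than in HFC by 1.72 (SE 0.66, 3.29-fold, limma adjusted p = 0.120), at 5 of 6 time points. It was 0.44 (SE 0.40) among dim arrays and 0.72 (SE 0.52) with brightness as a covariate. Sgk1 was lower in HF20 by 1.0 (difference -1.0, SE 0.57) and Cebpd by 1.19 (difference -1.19, SE 0.82), the latter lower at 3 of 6 time points. Among dim arrays these differences were 0.18 (SE 0.46) and 0.76 (SE 0.66), on the other side of 0. These values and that of Hsd11b1 among dim arrays rest on 2 HF20 arrays, those of Weeks 9 and 18.

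In HF5 the largest difference among the 10 genes was that of Mt2, 0.93 (SE 0.60), higher at 4 of 6 time points. In HF75 it was that of Fkbp5, 0.82 (SE 0.87), followed by Tsc22d3 at 0.78 (SE 0.48), the latter higher at 5 of 6 time points. Neither metallothionein gene had a difference in HF75 larger than its error, with -0.08 (SE 0.47) for Mt1 and 0.22 (SE 0.60) for Mt2.

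Whether the doses differed from each other was tested with the moderated F test of limma over the 3 doses and 6 time points. Hsd11b1 passed (adjusted p = 0.0446), so 1 of the 10 genes was called, beside 13.4% of all genes (2922 of 21862). At an unadjusted p under 0.05 the test held 8155 genes (37.3%) and 4 of the 10 (40.0%), the others being Sgk1 (adjusted p = 0.0751), Dusp1 (adjusted p = 0.0948) and Cebpd (adjusted p = 0.112).

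Hsd11b1 was higher in HF20 than at either other dose. HF20 exceeded HF5 by 1.97 (SE 0.66, 95% interval 0.60 to 3.35), or 3.93-fold, at 5 of 6 time points, and HF75 was below HF20 at 6 of 6 (difference -2.26, SE 0.66, 95% interval -3.64 to -0.89), or 4.80-fold. HF5 and HF75 differed by -0.29 (SE 0.66, 95% interval -1.66 to 1.09). At Week 12 the levels were 1.0 in HF5, 5.19 in HF20 and 1.65 in HF75. At Weeks 9 and 18 all 3 arrays were dim. In the same order the levels were 0.92, 1.81 and 0.70 at Week 9 and 2.40, 1.99 and 0.78 at Week 18.

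The call for Hsd11b1 was lost under several settings. With brightness as a covariate the differences were 0.50 (HF20 minus HF5), -1.14 (HF75 minus HF20) and -0.64 (HF75 minus HF5), with an adjusted p of 0.540, and without the block on time points the adjusted p was 0.0714. It was 0.0685 once the HF75 array of Week 3 was left out, and 0.101, 0.168, 0.182 or 0.198 with Week 3, 6, 12 or 15 left out.

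**Figure D3:**
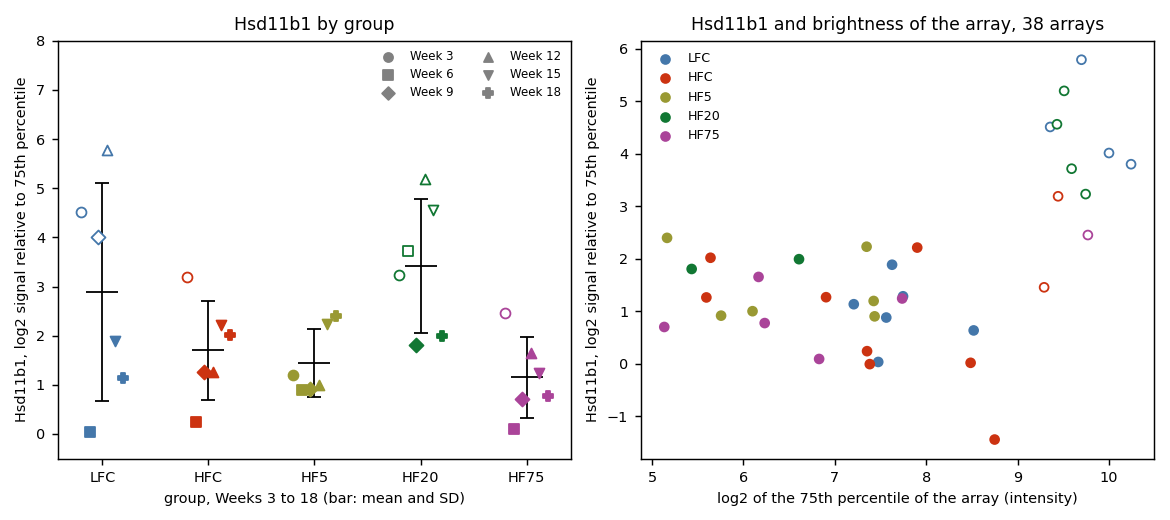
Hsd11b1 in log2 signal relative to the 75th percentile (vertical axes), on the left for the 5 groups over Weeks 3 to 18 with 1 symbol per week, the mean and the SD, and on the right against log2 of the 75th percentile of each of the 38 arrays. Open symbols are bright arrays. In HF20 the 4 open symbols (3.23 to 5.19) lie above the 2 filled ones (1.81 and 1.99), and to the right the open symbols of all groups run from 1.46 to 5.79.

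Of the 3 doses, HF20 had the lowest mean of Sgk1, Dusp1 and Cebpd, and these genes did not pass. HF20 minus HF5 was -1.50 for Sgk1 (SE 0.57), -1.66 for Dusp1 (SE 0.63, HF20 lower at 6 of 6 time points) and -2.01 for Cebpd (SE 0.82). HF75 minus HF20 was 1.57, 1.51 and 1.89, and HF75 minus HF5 was 0.07, -0.15 and -0.13. With brightness as a covariate HF20 minus HF5 shrank to -0.41, -0.45 and -0.71. For these genes r with log2 brightness was -0.54, -0.52 and -0.52 over all arrays, but 0.38, 0.71 and 0.51 over dim ones. A straight line may thus leave part of the gap between the classes in place here as well.

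Immediate early genes, which rise within minutes of stress or handling, moved with Sgk1, Dusp1 and Cebpd and against Hsd11b1. Over all 38 arrays r with their mean level was 0.83, 0.93, 0.92 and -0.82. These r also hold the gap between bright and dim arrays, and r within the classes was not calculated. The mean level of 12 such genes (Fos, Jun, Egr1 and others, all 12 well above background on 38 of 38 arrays) had a lowest, median and highest value of 3.79, 4.90 and 5.48 in HF5, -0.04, 1.46 and 4.09 in HF20 and 3.37, 4.85 and 5.09 in HF75. In LFC it ran from -0.79 to 5.49 and in HFC from 0.81 to 5.79. The lowest values in LFC (Week 0), HFC (Week 3) and HF20 (Week 6) were those of bright arrays. Their part in the values of Sgk1, Dusp1, Cebpd and Hsd11b1 was not tested.

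Markers of other cell types varied as well. The mean of 8 skeletal muscle genes ran from -5.49 to 4.56 in HF20, from -2.35 to 0.82 in HF5 and from -3.53 to 5.41 in HF75, and with it as a covariate the adjusted p of Hsd11b1 was 0.0560. The mean of 7 brown adipocyte genes had medians of 2.81 in HF5, 3.63 in HF20 and 2.18 in HF75. White adipocyte markers, the 3 tested genes without Tcf21, had medians of -2.89, -1.58 and -3.75 in the same order. Of the 4 white adipocyte genes listed, 0 were well above background on all arrays. Erythroid markers (5 genes) had medians of 3.11, 0.54 and 3.29. Macrophage markers had medians of -0.40, -0.03 and -0.67 and lymphocyte markers, 0 of 7 well above background on all arrays, of -3.50, -4.04 and -3.36. The mean of 9 clock output genes, of interest since glucocorticoids peak once a day, had medians of -0.47, -0.45 and -0.50, and the labels do not give the hour of sampling.

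How the 10 genes ran together over arrays was described within the 11 bright and the 27 dim arrays, since pooling both would mix the classes. The arrays of a class still share group, time point and brightness, so these are descriptions. Fkbp5 and Tsc22d3 had the highest Pearson r of all pairs over bright arrays, 0.92, and 0.79 over dim arrays. Mt1 and Mt2, whose genes lie close together on chromosome 8, had 0.70 over bright arrays and the highest r of all pairs over dim ones, 0.83. Mt2 and Cebpd had 0.74 and 0.73. Sgk1 and Dusp1 had 0.73 and 0.70, and Dusp1 and Cebpd 0.60 and 0.57.

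Other pairs depended on the class. Hsd11b1 and Sgk1 ran in opposite directions among bright arrays (-0.75) and more weakly so among dim ones (-0.32). Nr3c1 and Sgk1 had 0.36 among bright and 0.78 among dim arrays. Tsc22d3 and Sgk1 had 0.62 and 0.01. Between Fkbp5 and Sgk1, both receptor targets, r was 0.45 among bright and 0.08 among dim arrays.

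**Figure D4:**
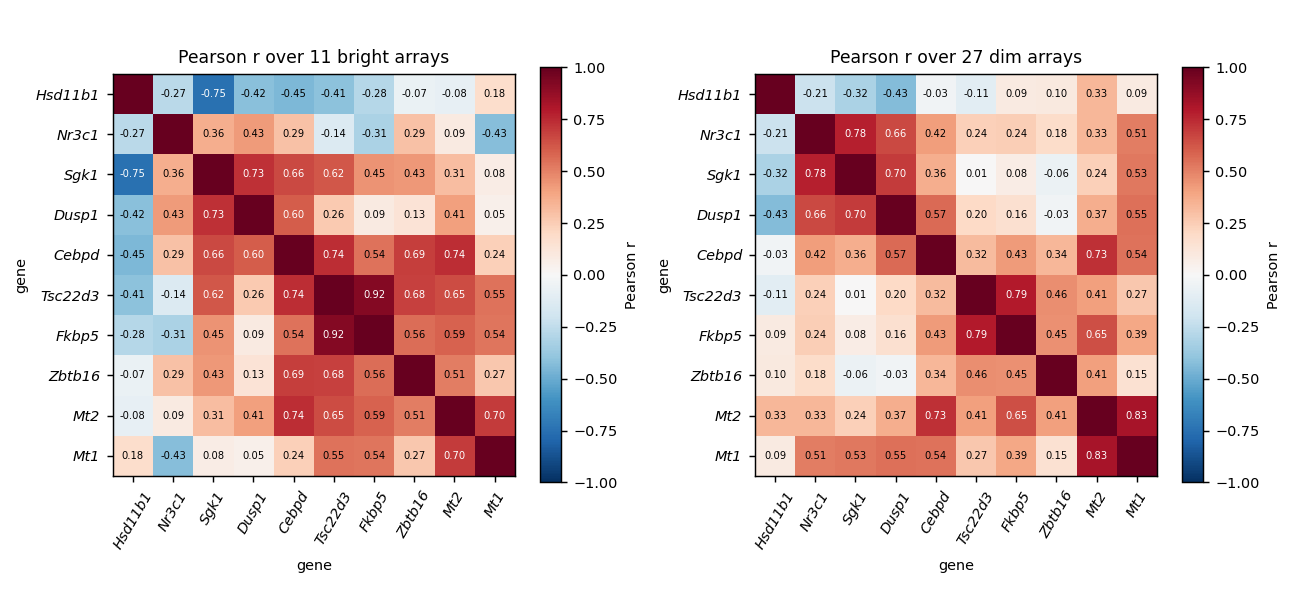
Pearson r between each pair of the 10 genes (rows and columns are genes, colour and number give r) over the 11 bright arrays on the left and the 27 dim arrays on the right. Fkbp5 with Tsc22d3 and Mt1 with Mt2 are high in both panels (0.92 and 0.79, 0.70 and 0.83), and Hsd11b1 with Sgk1 goes from -0.75 to -0.32.

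**Figure D5:**
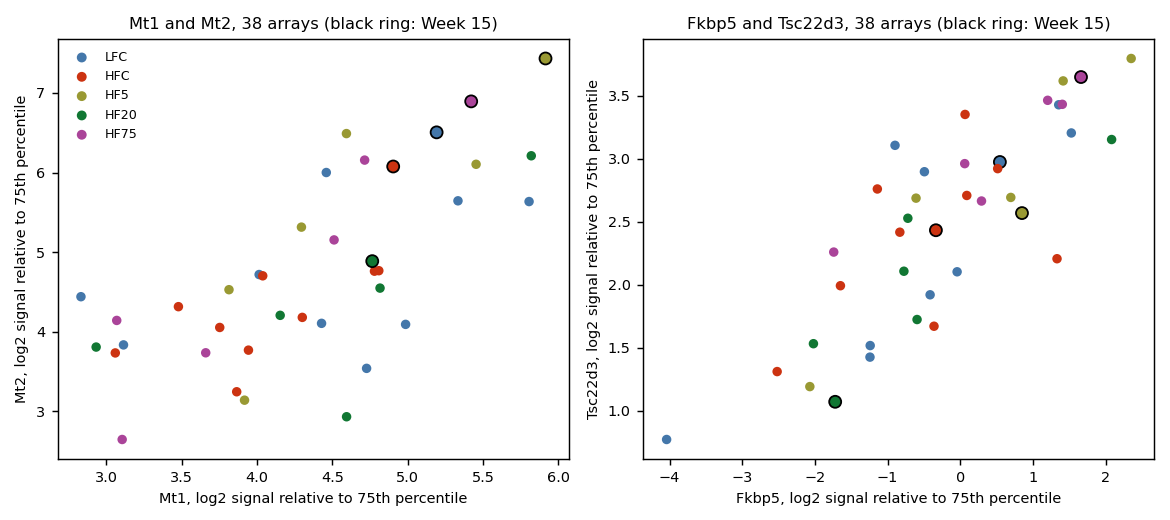
Levels of Mt2 against Mt1 and of Tsc22d3 against Fkbp5 (log2 signal relative to the 75th percentile, 1 point per array, 38 arrays, coloured by group, Week 15 ringed in black). At Week 15 the 5 groups range from 4.77 to 5.92 in Mt1 and from 4.89 to 7.43 in Mt2.

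Against 20860 tested genes, the most like each of the 10 were named by Pearson r over all 38 arrays. In parentheses is r after taking out a straight line in log2 brightness, which may leave part of the gap between the classes. The arrays share group, time and brightness class, so r over both classes also holds the gap between them, and the likeness is a description. Hsd11b1 was most like Oscp1 at 0.91 (0.87), H6pd at 0.90 (0.88) and Echdc2 at 0.90 (0.85). H6pd, which supplies the NADPH that the reductase uses, came first once brightness was taken out. Over dim arrays alone these 3 had r of 0.55, 0.60 and 0.62 with Hsd11b1, against 0.91, 0.94 and 0.82 over bright arrays. Dusp1 was most like Apold1 at 0.94 (0.92), the immediate early factor Atf3 at 0.94 (0.91) and Cyr61 at 0.93 (0.91). Cebpd was most like Gm5864 at 0.96 (0.95), the endothelial factor Sox17 at 0.96 (0.94) and LOC634496 at 0.95 (0.94). Sgk1 was most like Gm10338, Cdgap and Lrrc8c, each at 0.93 (0.91, 0.91 and 0.90).

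Fkbp5 had Tsc22d3 as its most like gene at 0.83 (0.83), ahead of Plod2 at 0.68 (0.67) and Ptx3 at 0.67 (0.66). In turn Tsc22d3 was followed by Fkbp5, Arhgap25 at 0.80 (0.74) and Drctnnb1a at 0.79 (0.75). Mt1 had Mt2 first at 0.70 (0.75), then Cct2 at 0.69 (0.62) and Rasl2-9 at 0.68 (0.64), but over bright arrays alone Cct2 had -0.06 and Rasl2-9 0.31. Mt2 had the acute phase gene Ptx3 first at 0.73 (0.75), then Mt1. Nr3c1 was most like Tlk1 at 0.83 (0.83), Cept1 at 0.82 (0.83) and Arhgef12 at 0.82 (0.82), and Zbtb16 most like Map3k6 at 0.78 (0.76), LOC100046825 at 0.76 (0.74) and Gm4679 at 0.73 (0.70). Within the classes, r of the most like genes of all 10 lay between 0.55 and 0.88 over dim arrays and, apart from Cct2 and Rasl2-9, between 0.66 and 0.98 over bright arrays.

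Related genes of the same pathways were counted from 3 further lists. None of the 11 genes that handle glucocorticoids or their receptor, of 20 further receptor targets and of 13 metal handling genes passed in HFC against LFC, the trend, the product of diet and day, or any dose against HFC. In the differences among doses 2 of 11, 1 of 20 and 1 of 13 passed, beside the same 13.4% of all genes. They were Fkbp4, a chaperone of the receptor (adjusted p = 0.0426, means of 0.98 in HF5, 1.58 in HF20 and 0.23 in HF75), the efflux pump Abcb1a (adjusted p = 0.0448, means of -2.80, -4.46 and -2.26, well above background on 30 of 38 arrays), the lipid phosphatase Lpin1 (adjusted p = 0.0482, means of 1.22, 3.22 and 0.45) and the zinc exporter Slc30a1 (adjusted p = 0.0351, means of 1.37, 0.36 and 1.94). Fkbp4 and Lpin1 had the order of Hsd11b1, with HF20 highest and HF75 lowest, and Abcb1a and Slc30a1 the reverse. As for Hsd11b1, the calls of all 4 were lost with brightness as a covariate, with normexp, over dim arrays and without the HF75 array of Week 3, where 0 of the 21862 genes passed. Over all alternatives Fkbp4 was called in 7 of 21, Abcb1a in 7 of 20, Lpin1 in 8 of 21 and Slc30a1 in 9 of 21.

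Of the receptor targets, Pck1, the gluconeogenic and glyceroneogenic enzyme, had the smallest p in HFC against LFC. Its lowest, median and highest levels were 4.41, 5.42 and 6.69 in LFC and 5.63, 6.66 and 7.59 in HFC, a difference of 1.16 (SE 0.24, limma unadjusted p = 0.000455, adjusted p = 0.643). The groups overlapped. Pik3r1 differed by -0.44 (SE 0.19, adjusted p = 0.643). Of the handling genes, H6pd differed by -0.76 (SE 0.59) and Abcb1a by 0.49 (SE 0.42), and of the metal handling genes Mt4 by 0.64 (SE 0.36) and Slc39a10 by 0.60 (SE 0.34).

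In the trend over days the smallest p of these lists was that of Fkbp4, with -0.09 log2 units per 10 days (SE 0.02, adjusted p = 0.0569). The mineralocorticoid receptor Nr3c2 had 0.10 (SE 0.05, well above background on 28 of 38 arrays), and among targets Tat had 0.15 (SE 0.05, adjusted p = 0.0932) and Lcn2 0.21 (SE 0.08). The brain-enriched metallothionein Mt3 had 0.07 (SE 0.04) and the copper importer Slc31a1 -0.08 (SE 0.04).

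In the product of diet and day Nr3c2 had 0.17 (SE 0.05, adjusted p = 0.150), Ncoa2 -0.11 (SE 0.05), Tat 0.16 (SE 0.07), Angptl4 -0.09 (SE 0.05), the zinc transporter Slc39a1 -0.09 (SE 0.04) and the transferrin receptor Tfrc -0.27 (SE 0.14), each per 10 days. These are the 2 smallest p values of each list.

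In the dose comparisons the named genes of the lists were the following, none of which passed. In HF5 against HFC, Hsp90aa1 differed by 0.66 (SE 0.48), Nr3c2 by -0.64 (SE 0.52), Angptl4 by 0.72 (SE 0.35), Sult1a1 by 0.74 (SE 0.45), Ftl1 by 0.40 (SE 0.22) and Slc39a1 by 0.31 (SE 0.24). In HF20 against HFC, the coactivator Ncoa1 differed by 0.51 (SE 0.19), Nr3c2 by -1.38 (SE 0.52), Cebpb by 0.91 (SE 0.37), Lpin1 by 1.95 (SE 0.80), Slc31a1 by 1.17 (SE 0.46) and Slc39a10 by -1.02 (SE 0.45), with adjusted p values from 0.118 to 0.131. In HF75 against HFC, Fkbp4 differed by -1.02 (SE 0.36), Ncoa2 by 0.97 (SE 0.35), Lcn2 by 1.60 (SE 0.85), Tat by -0.92 (SE 0.64), Slc30a1 by 0.90 (SE 0.37) and Atp7a by 0.41 (SE 0.35). In HF75 the SEs of Lcn2 and Tat rest on genes near background, well above it on 21 and 29 of 38 arrays.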

How the data were processed

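Total RNA of brown adipose tissue was labelled with Cy3 and hybridised to a custom mouse array, per the labels. Groups were taken from the sample labels. Weeks were counted from day 14, as in the study's methods, which describe the liver arrays of the experiment. Spot intensity in the deposited scanner files was extracted, per the file headers, with Feature Extraction 10.5.1.1 (9.1 in the submitters' processing notes), corrected for background and left without scaling between arrays. In the deposited table the authors give log2 values against the LFC array of each time point. Its Week 15 columns matched the scanner files only in the spot order of the arrays, so it served as an alternative.

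From log2 of the processed signal the 75th percentile of the array was subtracted. For each gene name the brightest probe on average was used, and 21862 genes, each with 6 or more of 38 arrays well above background, were tested with limma 3.58.1 in R 4.3.3 (with Python 3.11.15, pandas 2.3.3, scipy 1.17.1 and matplotlib 3.10.9), two-sided, with Benjamini-Hochberg adjustment at 0.05. The diet comparison and the product of diet and day took 20 arrays and a block for time point, the trend the same arrays without it, and the dose comparisons the 30 arrays of Weeks 3 to 18 with it. The number of arrays and the signal over background limit the precision. The steps were tested on simulated data.

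The 10 genes, the lists (glucocorticoid handling, receptor targets, metal handling and markers of other cell types, immediate early and clock genes) and the tests were chosen with earlier results of these data known. The text names all 10 genes, from the 3 pathway lists the called genes (at most 3 a list) or else the 2 smallest p values in each comparison, and for each of the 10 the 3 most like genes, of which 1 is not reported here. Alternatives were the mean of all probes, quantile normalization, normexp correction with an offset of 50, a floor at background, other filters on dim probes, brightness or muscle markers as covariates, no block, slide or scan day as random blocks, Day 14 and Week 0 joined, Weeks 3 to 18, leaving out each time point, the methods' t-test (here over time points) and the deposited table. Likeness within bright and dim arrays was added after seeing the data. Promoters are RefSeq sequences of GRCm38.p6 for 7 of the 10 genes. No sample column was left unmapped (0).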

Additional observations from a re-analysis of the deposited data

Results flagged for a closer look

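Of 50 sets of values (10 genes in 5 groups), 4 held an array far from the others of its group. Chance gives about 1 in 20 such sets. Nr3c1 in HF5 was lowest at Week 12, at 1.75, with the next lowest at 2.36. Fkbp5 in LFC was lowest at Week 3, at -4.04 against -1.24, and in HF20 it was highest at the same week, at 2.08 against -0.59. Both of these Week 3 arrays were bright. Zbtb16 in HF5 was lowest at Week 6, at -0.52 against 2.92. The differences among doses of Hsd11b1 (adjusted p = 0.0446, limma) were also marked for a closer look because the doses differ from each other in this test. Its levels were high on bright arrays, 4 of which are HF20 arrays.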

How the results depend on the processing

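With 1 array per group and time point, and with unequal signal over background, precision was limited. Of 1590 values of the 10 genes under all alternatives, 1437 kept their side of the threshold and their direction, 133 uncalled values changed sign with either value within its SE of 0, 12 lost a call (Hsd11b1 among doses), 7 gained one (Sgk1, Dusp1 or Cebpd among doses) and 1 turned direction. The value that turned was Cebpd in HF20 against HFC, -1.19 (SE 0.82) over all arrays and 0.76 (SE 0.66) over dim arrays alone. Only 2 HF20 arrays were dim. The setting with dim arrays alone was added after seeing the data. So were the removal of the HF75 array of Week 3 and the deposited table with Week 15 in spot order.

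In HFC against LFC the count of genes called went from 0 to 1 with the muscle covariate, 3 with scan day as a random block and 2 over Weeks 3 to 18. In the trend over days it went from 368 to 893 with quantile normalization, 665 with normexp, 158 with the mean of all probes, 607 with the floor, 62 without the filter, 75 with the filter on every array, 2 with brightness as a covariate, 158 with the muscle covariate, 2 with scan day as a random block, 60 with Day 14 and Week 0 joined and 819 over dim arrays, and it ran from 7 (without Week 18) to 620 (without Week 12) when a time point was left out. None of the 10 genes was called in the trend under these settings. The product of diet and day had 1 gene with brightness as a covariate and 0 to 378 without a time point, HF20 against HFC 1 with the deposited table in spot order and 0 to 3571 without a time point, and HF75 against HFC 1 with quantile normalization, 1 with the filter on every array and 0 to 1 without a time point.

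In the differences among doses the count of genes went from 2922 to 0 with normexp, without the filter, with brightness as a covariate, with the deposited table, over dim arrays and without the HF75 array of Week 3, to 1149 with the muscle covariate and 6465 with slide as a random block, and from 0 (without Week 3, 6, 12 or 15) to 5386 (without Week 9). Of the 10 genes, 1 called at first, these settings left 0 with normexp, without the filter, with either covariate, with the deposited table, over dim arrays and without the HF75 array, while 2 were called with the filter on every array, 3 with slide as a random block, 3 with the deposited table in spot order and 0 to 3 without a time point. The adjusted p of Hsd11b1 ran from 0.0146 to 0.9998 over these alternatives. The causes were not tested.

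The block was the labelled time point. Without the replicate block the differences among doses had 1232 genes and 0 of the 10, and with the time point as a random block the trend had 2 genes. No other call of the 10 genes changed without the block.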
